A study of Saccharomyces cerevisiae with 2 samples.

Results

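The chromatin around the centromere of budding yeast chromosome III is described here from predicted nucleosome positions. The members are all positions whose centre lies between 100000 and 130000 bp on chromosome III in the build sacCer2, in either library and in either list of that library. They number 802 of 8357 entries. The H2A.Z library gave 216 of its 2264 paired-end and 178 of its 1859 single-end positions, and the total library gave 222 of 2353 and 186 of 1881. Distances are measured from a point at 114.4 kb, where the centromere lies. This point is rounded to 100 bp, so distances from it may be off by 50 bp, and left means towards lower coordinates.

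Both libraries come from strain yFR212, a MATa strain of the W303 background. H2A.Z is a histone variant encoded by HTZ1, and here that gene carries 3 Myc epitopes at its 3′ end, so the total chromatin bears the tag too. The strain is GAL+ and psi+, carries can1-100, and has the auxotrophic alleles ura3-1, trp1-1, ade2-1 and his3-11,15, together with a mutant leu2 gene. Cells in YPD at an optical density of 0.8 were fixed with 1% formaldehyde and their chromatin was digested for 20 minutes at 37 °C with micrococcal nuclease, which cuts the linker DNA between nucleosomes. The first library, called H2A.Z, holds mononucleosomes precipitated with an antibody against Myc. The second, called total, holds mononucleosomes with no precipitation. There was 1 library per group and an untagged strain was not analysed here, so no difference below has a replicate check or a p-value, and DNA precipitated without the tagged histone cannot be told apart. The words H2A.Z position mean an entry of that library's lists, whatever histones the nucleosome holds. The lists hold no read counts, so depth is unknown.

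Budding yeast has point centromeres, in which a short DNA element holds a specialised nucleosome where the histone variant Cse4 takes the place of histone H3. The kinetochore, which ties the chromosome to the spindle, is built on it. H2A.Z takes the place of H2A in a subset of nucleosomes, is placed there by the SWR1 complex, and is best known from the nucleosomes beside gene starts. In the gene order of assembly R64, the genes next to the centromere on the left arm are YCL001W-B, YCL001W-A and RER1, whose product returns membrane proteins to the endoplasmic reticulum. On the right arm they are YCR001W, CDC10, which encodes a septin of the bud neck ring, and MRPL32, which encodes a protein of the large mitochondrial ribosomal subunit. That assembly is not the build of the lists, so positions were not assigned to genes.

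The position at the centromere itself was sharp and high in score in the H2A.Z library and near the bottom of the list in the total library, where it was broad by paired-end data and of middling width by single-end data. In the H2A.Z library its centre lay at 114432 in the paired-end list and at 114436 in the single-end list. In the total library it lay at 114430 and 114447. These 4 centres lie within 17.0 bp of each other, and the standard error of the centre was 1.23 and 0.996 bp in the H2A.Z lists, against 13.5 and 12.0 bp in the total lists. Scores are those of the authors, without a stated scale, and served only to rank entries within a list. By rank the position was 218 of 2264 and 162 of 1859 in the H2A.Z lists, against 2298 of 2353 and 1877 of 1881 in the total lists. As a percentile rank, on which 100 is the top of a list, this is 90.4 and 91.3 in H2A.Z, against 2.36 and 0.239 in total.

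The difference in percentile rank was 88.0 points in the paired-end and 91.1 points in the single-end lists. Pairs were formed from mutually nearest centres of the libraries up to 20 bp apart. Among all such pairs of the chromosome the centromere pair had the fifth highest gain of 1555 in the paired-end lists and the highest of 1531 in the single-end lists. Both list types come from the same DNA of a library and are not independent.

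The forward SD, the spread of forward read positions about a centre, measures how fuzzy a position is. At the centromere it was 14.9 and 13.4 bp in the paired-end and single-end H2A.Z lists, against 40.4 and 31.4 bp in the total lists. The reverse SD was 18.5 and 22.0 bp in H2A.Z, against 41.1 and 31.6 bp in total. Ordered from the sharpest, the H2A.Z position was 9 of 2264 by paired-end and 5 of 1859 by single-end data for the forward SD, and it was the sharpest of the 216 paired-end H2A.Z positions around the centromere. The total position was 2322 of 2353 and 1075 of 1881, and its single-end value of 31.4 bp lies near the median of 30.0 bp around the centromere. The total entries had scores of only 0.0245 and 0.0582, near the bottom of their lists, so their widths may be poorly estimated. The gap from the forward to the reverse read peak was 110 and 112 bp in H2A.Z, against 129 and 145 bp in total, and the paired-end H2A.Z value was 20 of 2264 in order from the shortest.

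**Figure D1:**
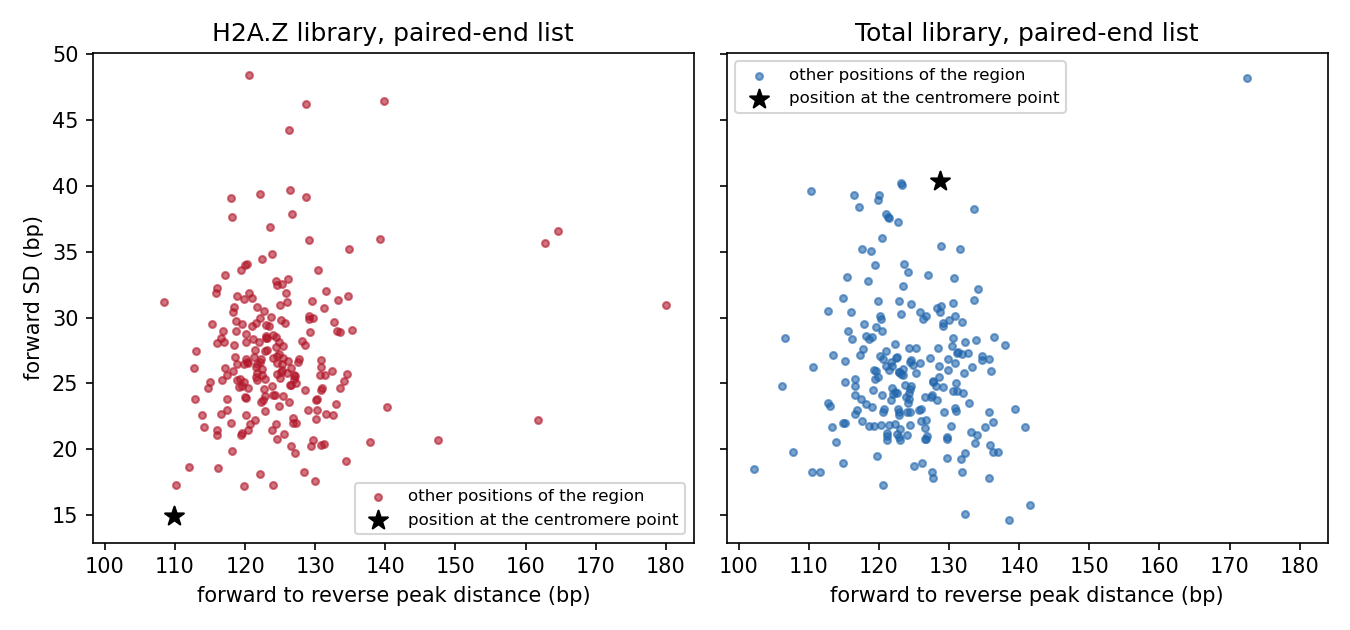
Forward SD (bp) against peak distance, forward to reverse (bp), for each paired-end position between 100000 and 130000, H2A.Z library left and total library right; each point is 1 position and the star is the one at the centromere. In H2A.Z the star lies at 14.9 bp and 110 bp, at the lower left edge of the cloud, and in total at 40.4 bp and 129 bp, among the broadest positions.

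Each H2A.Z list also held a second centre close to the centromere, weak in the paired-end list and well ranked in the single-end list. The paired-end list had one at 114340 with a mixing weight of 0.0231, the share of the fitted reads assigned to a centre within its candidate region. Its rank was 2234 of 2264 and its standard error 15.4 bp. The single-end list had one at 114521 with a weight of 0.259 and a rank of 309 of 1859, a percentile rank of 83.4. Its forward SD was 43.0 bp, its reverse SD 13.3 bp and its standard error 17.2 bp. Neither list type repeated the second centre of the other.

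In the total library the centromere position had long distances on both sides, and in the H2A.Z library it had them only once these second centres were left out. With all centres counted, it lay at least 220 bp from both neighbours in both total lists and in neither H2A.Z list. Over the whole chromosome 6 of 2353 paired-end and 14 of 1881 single-end total positions lay that far from both. Leaving out centres under 150 bp away, the next one to the left lay 228 and 234 bp off in the H2A.Z paired-end and single-end lists, against 240 and 247 bp in the total lists. To the right the distances were 248 and 245 bp in H2A.Z, against 243 and 225 bp in total. The flanking centres were thus 476 and 479 bp apart in H2A.Z and 482 and 472 bp apart in total. The median distance between neighbouring centres around the centromere, in comparison, was 166 bp in the H2A.Z and 163 bp in the total single-end list.

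The left flanking position was strong in both libraries and the right one ranked higher in H2A.Z. The left flank, at 114204 and 114202 in H2A.Z and at 114190 and 114200 in total, had percentile ranks of 96.3 and 96.2 in H2A.Z, against 94.3 and 93.1 in total. The right flank, at 114680 and 114681 in H2A.Z and at 114673 and 114672 in total, had percentile ranks of 91.0 and 87.6 in H2A.Z, against 60.4 and 56.7 in total. The flanks thus differed in how far apart the libraries were.

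Beyond the flanks, centres followed on the left at like places in both single-end lists. They lay at 114012, 113839, 113684 and 113528 in H2A.Z, and at 114013, 113844, 113693 and 113534 in total. The steps between these centres, in order away from the flank, were 190, 173, 155 and 156 bp in H2A.Z and 187, 168, 152 and 159 bp in total. The step next to the flank was thus the longest of these 4 in both libraries. To the right the libraries were less alike. Beyond the right flank the H2A.Z single-end list had centres at 114830, 114947 and 115037, against 114817, 114894 and 115017 in total. The paired-end total list split the left side further, with pairs of centres 30 bp apart at 114027 and 114057 and 40 bp apart at 114150 and 114190.

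**Figure D2:**
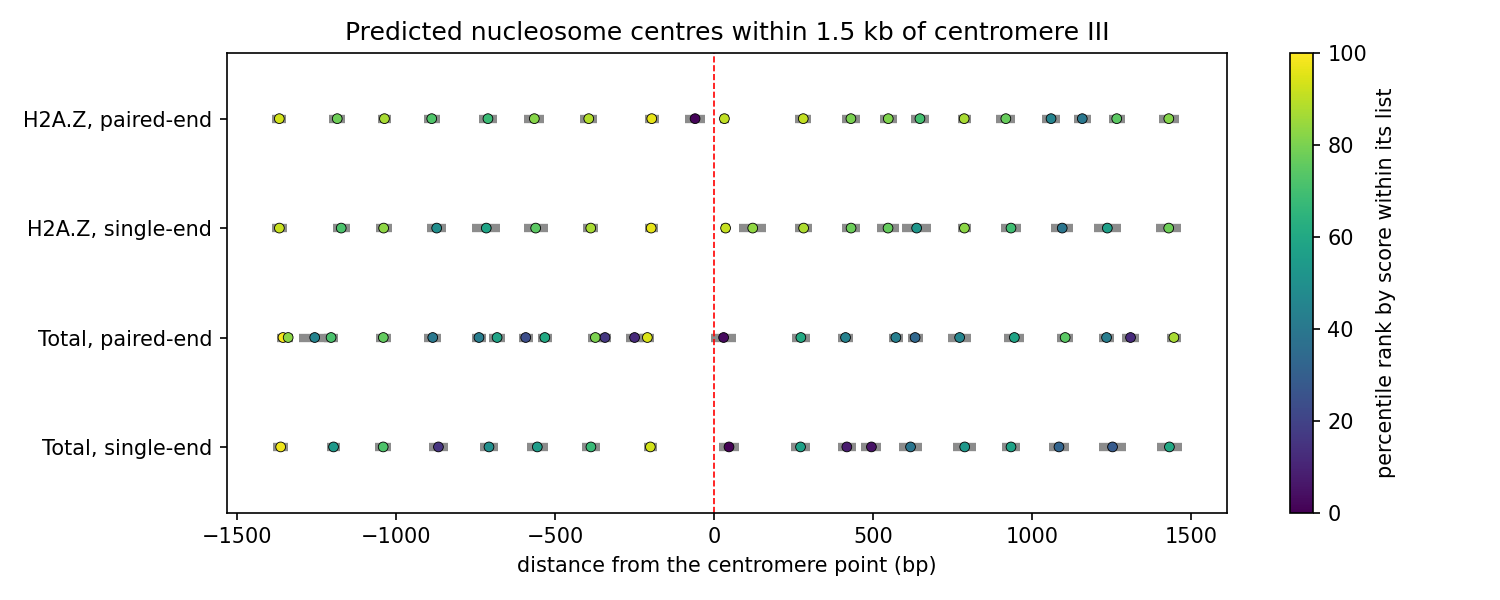
Predicted nucleosome centres within 1.5 kb of the centromere point (dashed line) in the 4 lists, by distance in bp; grey bars span 1 forward SD to either side and colour gives the percentile rank by score within the list. The centre beside the line has a percentile rank of 90.4 and 91.3 in the H2A.Z lists and of 2.36 and 0.239 in the total lists. Its nearest neighbours lie 240 and 243 bp off in the paired-end total list, while each H2A.Z list has a further centre under 100 bp from it.

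Within 1 kb of the centromere positions ranked high in the H2A.Z library and near the middle of the list or below it in the total library. The median percentile rank was 80.8 over 13 H2A.Z paired-end positions (95% interval 69.9 to 90.4) and 43.3 over 16 total ones (23.8 to 60.4). In the single-end lists it was 77.4 over 13 H2A.Z positions (58.2 to 87.6) and 51.3 over 12 total ones (7.74 to 57.6). The intervals of the libraries were separate in both list types. The paired-end lists were split unequally here, with 9 total and 6 H2A.Z positions on the left and 7 of each on the right. Distances under 100 bp made up 46.7% of paired-end distances in total and 16.7% in H2A.Z within 1 kb. By single-end data they made up 9.09% in total and 16.7% in H2A.Z. How far such close entries alter the paired-end medians was not tested. Intervals here and below are order-statistic intervals for medians and exact Clopper-Pearson intervals for shares. They take positions to be independent and cover no error but that of counting. All 7 matched paired-end pairs and all 11 single-end pairs within 1 kb ranked higher in H2A.Z, by a median of 35.9 points (2.03 to 88.0) and 19.7 points (8.82 to 69.6).

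From 1 to 5 kb the median percentile rank was 69.4 over 57 H2A.Z paired-end positions (57.1 to 78.5) and 52.2 over 62 total ones (42.0 to 62.8). The 36 matched paired-end pairs of this band differed by a median of 2.69 points (-3.03 to 9.78). The 42 single-end pairs differed by 10.6 points (0.0642 to 23.0), and 28 of them ranked higher in H2A.Z. From 5 to 10 kb the medians were 68.4 in H2A.Z (59.7 to 76.1) and 69.2 in total (50.1 to 78.0). Beyond 10 kb they were 54.6 (41.1 to 68.9) in H2A.Z and 45.0 (36.4 to 60.3) in total. The intervals of the libraries overlapped in every band beyond 1 kb.

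The arms were not alike. On the left, from 5 to 10 kb away, both libraries had strong and regular positions. Median percentile ranks were 78.8 over 31 H2A.Z and 87.4 over 29 total paired-end positions. Here 8 of 31 H2A.Z positions, or 25.8% (11.9 to 44.6%), and 13 of 29 total ones, or 44.8% (26.4 to 64.3%), were in the top 10% of their list, against 9.98% and 9.99% of all positions of these lists. By single-end data the shares were 17.2% of 29 H2A.Z positions (5.85 to 35.8%) and 42.9% of 28 total ones (24.5 to 62.8%). Only the H2A.Z interval there includes the level of its whole list, 10.0%. Neighbours under 100 bp apart made up 16.7% of paired-end distances in H2A.Z and 7.14% in total in this stretch. In the compared areas they made up 26.3% and 30.8%. On the right at the same distance the medians were 52.3 over 37 H2A.Z and 43.5 over 35 total positions, and 3 and 1 of them were in the top 10%. In the bin from 9 to 10 kb on the right the median percentile rank was 7.40 over 5 H2A.Z and 8.78 over 6 total positions. The single-end lists gave 36.5 over 4 H2A.Z and 8.37 over 4 total positions there, so the very low H2A.Z level was not seen by single-end data.

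**Figure D3:**
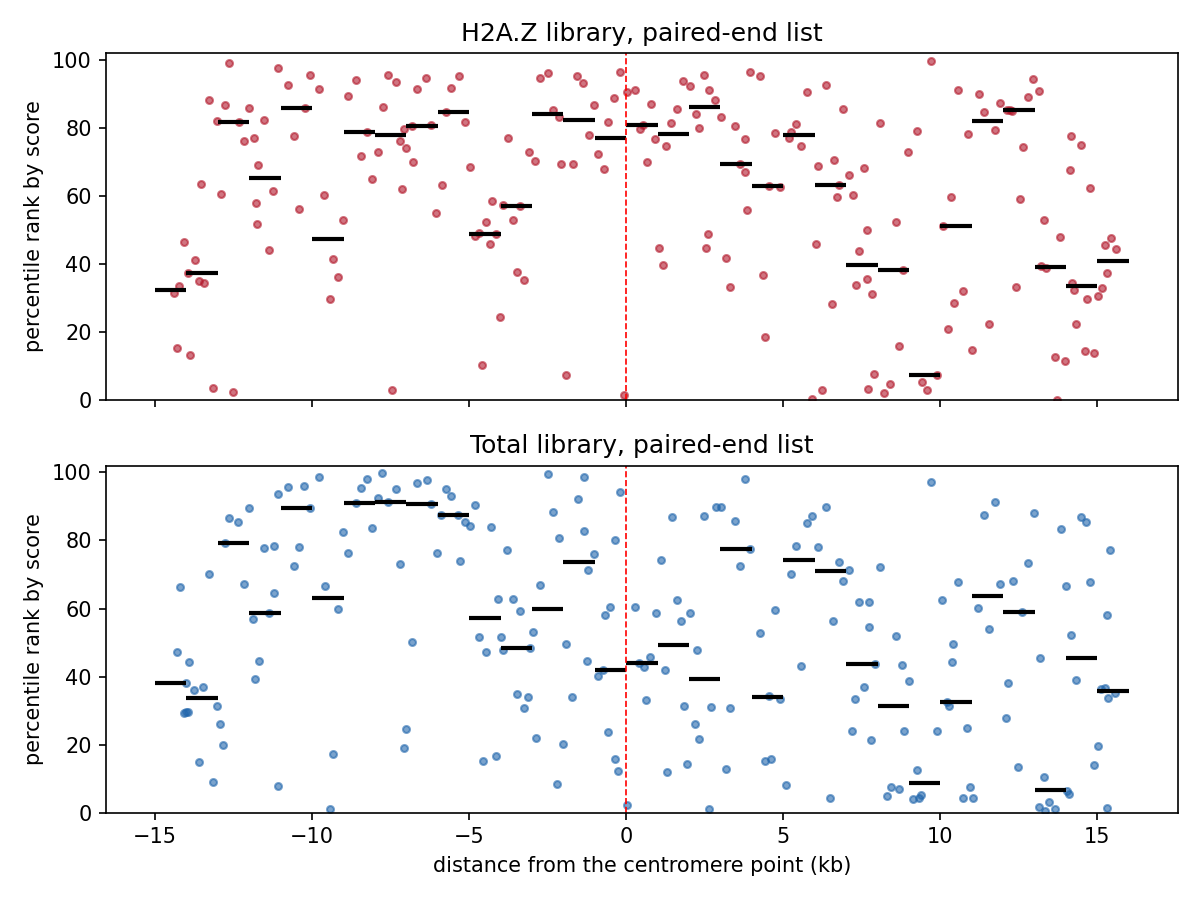
Percentile rank by score within its paired-end list against distance from the centromere point (kb), H2A.Z library above and total library below; points are positions, black bars are medians of 1 kb bins and the dashed line is the point. Beside the line the bin medians are 77.1 and 80.8 in H2A.Z and 41.9 and 43.8 in total, and in the bins from 5 to 9 kb on the left both libraries are high.

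Over the whole 30 kb, H2A.Z positions ranked higher around the centromere than elsewhere on the chromosome arms, while the medians of total positions lay 0.637 points apart. The areas compared are those at 30001 to 99999 and 130001 to 286000 bp. The median percentile rank of H2A.Z paired-end positions was 67.8 around the centromere (60.1 to 72.8) and 50.0 in the compared areas (47.5 to 52.2). In the single-end list it was 70.1 (62.6 to 75.2) and 49.7 (46.4 to 52.4). For total paired-end positions it was 52.9 (44.7 to 60.3) and 52.3 (49.9 to 54.6). The top 10% held 31 of 216 H2A.Z positions around the centromere, or 14.4% (9.96 to 19.7%), and 161 of 1614 in the compared areas, or 9.98% (8.56 to 11.5%). For total it held 24 of 222, or 10.8% (7.05 to 15.7%), and 181 of 1685, or 10.7% (9.30 to 12.3%). Over the whole lists the top 10% holds 9.98% and 9.99%. The H2A.Z share around the centromere lay above this level, with an interval that only just includes it, and the total share lay near it. The intervals of region and compared areas overlap in both libraries.

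Windows of 10 kb show how far single stretches of the chromosome vary. The 3 windows around the centromere, from left to right, had median H2A.Z percentile ranks of 70.0, 76.7 and 46.7 in the paired-end list, and the 22 windows of the compared areas ran from 27.0 to 74.8. The middle window, which holds the centromere, was above all 22. In the single-end list its median was 75.7, again above all 22, whose highest was 73.3. The left window, at 73.8, was above all 22 in that list too. In the total paired-end list the 3 windows had 73.4, 49.6 and 38.9, so that total chromatin was strongest in the left window, above all 22, and lower than 20 of them in the right one. By single-end data the left total window had 71.7, and 1 of the 22 lay above it, at 79.2. The H2A.Z level on the left therefore came with a high total level, and that in the middle did not.

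Matched pairs compare the libraries at the same position. Of the 216 H2A.Z paired-end positions 141 had a total centre within 20 bp, or 65.3% (58.5 to 71.6%), against 69.6% (67.3 to 71.8%) in the compared areas. In 139 mutually nearest pairs around the centromere the median difference in percentile rank, H2A.Z minus total, was 2.83 points (-1.91 to 5.64), against -3.36 points (-5.18 to -1.40) in the compared areas. The single-end lists gave 5.27 points over 150 pairs (1.21 to 9.35), against -2.58 points (-4.21 to -1.12). In the window with the centromere the median was 6.73 points in paired-end (2.03 to 27.7) and 17.0 points in single-end lists (8.82 to 23.4), the fifth highest and the highest of 32 windows along the chromosome. The next highest single-end window, from 300000 to 310000 bp, had 16.2 points (2.47 to 30.1). That from 150000 to 160000 bp, inside the compared areas, had 13.7 points (6.79 to 20.9). Both intervals overlap that of the centromere window.

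Pairs that ranked at least 25 points apart were counted in each direction. Around the centromere 27 of 139 paired-end pairs ranked that much higher in H2A.Z, or 19.4% (13.2 to 27.0%), against 15.0% of all 1555 pairs. In the other direction there were 9, or 6.47% (3.00 to 11.9%), against 16.3% of all pairs. In the single-end lists the counts were 26 of 150, or 17.3%, against 13.8% of all 1531 pairs, and 9, or 6.00% (2.78 to 11.1%), against 13.6%. The share ranked lower in H2A.Z was thus below the level of the chromosome, while the interval of the share ranked higher includes that level in both list types.

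Close to the centromere, the pairs ranked much higher in H2A.Z lay mostly to its right. Up to 5 kb to the right 11 of 22 paired-end pairs, or 50.0% (28.2 to 71.8%), ranked at least 25 points higher in H2A.Z. So did 12 of 27 single-end pairs, or 44.4% (25.5 to 64.7%). Over the whole chromosome 15.0% of paired-end and 13.8% of single-end pairs did. None ranked that much lower there, 0 of 22 and 0 of 27, against 16.3% and 13.6% of all pairs. Up to 5 kb to the left 2 of 21 and 4 of 26 ranked that much higher, with 2 and 1 in the other direction. The 11 pairs include that at 117043, whose low total rank was not seen by single-end data. The sides and the 5 kb limit were set after the values were seen. The median differences to the right were 26.0 points (-1.55 to 36.7) and 23.4 points (13.7 to 36.8), and to the left 2.03 points (-3.46 to 5.30) and 4.19 points (-3.82 to 13.6). In levels, the paired H2A.Z positions to the right had a median percentile rank of 82.4 and their total partners 59.1.

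**Figure D4:**
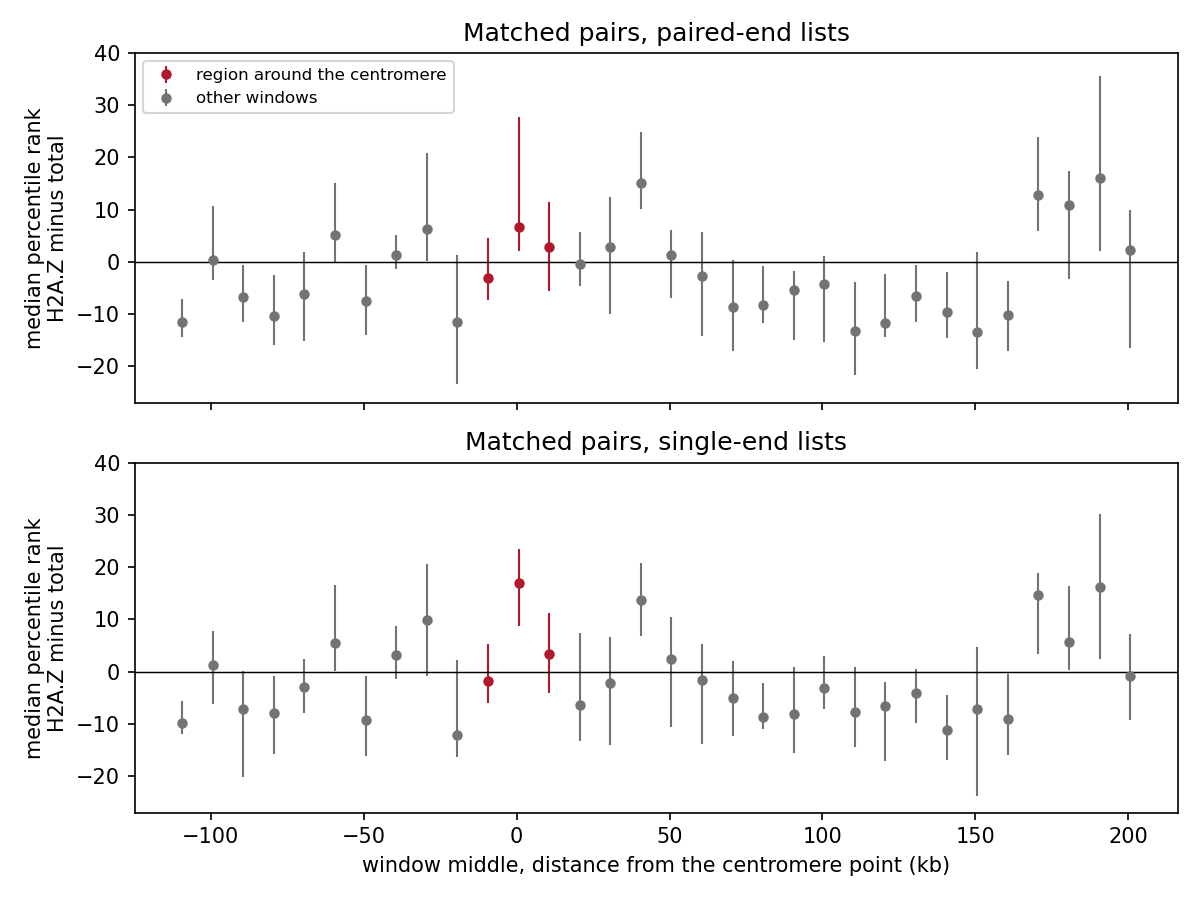
Median difference in percentile rank, H2A.Z minus total, of matched pairs in 10 kb windows, by distance of the window's middle from the centromere point (kb), paired-end lists above and single-end lists below; bars are 95% order-statistic intervals and the 3 windows around the centromere are red. The middle red window lies at 6.73 points above and 17.0 points below. In the upper panel windows up to 16.0 points lie towards the right end, and the window at 40.6 kb, inside the compared areas, lies at 15.1 points.

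Of the 5 largest gains in H2A.Z around the centromere by paired-end data, the centromere pair was the third. The pairs at 117043 and 127556 had gains of 90.1 and 89.3 points. Their total partners, at 117040 and 127556, had percentile ranks of 1.08 and 1.64, with reverse SDs of 31657 and 17109 bp. In the total single-end list the nearest centres, 23.4 and 10.5 bp away, had percentile ranks of 64.0 and 84.4. The low ranks of these partners were thus not seen by single-end data, unlike the low rank at the centromere. The remaining gains were at 123656, with 66.5 points, and at 107339, with 60.6 points, and single-end data gave total percentile ranks of 2.37 and 13.8 at these places.

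The largest loss was at 120300, where H2A.Z was 87.0 points below total. Its reverse SD in the H2A.Z list was 34989 bp, and the single-end H2A.Z centre 8.33 bp away had a percentile rank of 93.9. The other losses were 55.3 points at 128382, 51.3 points at 122111, 42.2 points at 109596 and 42.2 points at 112496. At 122111 the reverse SD in the H2A.Z list was 343 bp, and the nearest single-end centres had percentile ranks of 20.4 in H2A.Z and 20.2 in total, 26.6 and 38.9 bp away, so this loss was not seen by single-end data. Entries with a reverse variance above 10000 squared bp numbered 3 of 216 in the H2A.Z and 6 of 222 in the total paired-end list around the centromere.

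Places at which the libraries disagreed were unevenly spread. Of H2A.Z paired-end positions 5 to 10 kb to the right of the centromere, 18 of 37 had a total centre within 20 bp, or 48.6% (31.9 to 65.6%). At the same distance to the left it was 27 of 31, or 87.1% (70.2 to 96.4%). By single-end data the shares were 65.5% (45.7 to 82.1%) and 89.7% (72.6 to 97.8%), whose intervals overlap. Over the whole chromosome 69.4% of H2A.Z paired-end and 82.4% of single-end positions had such a centre. That level lies above the paired-end interval on the right and below the one on the left, and inside the single-end interval on the left. The single-end interval on the right ends just under it.

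The density of positions around the centromere was within counting error of that in the compared areas. There were 7.20 H2A.Z paired-end positions per kb (6.27 to 8.23) and 7.14 in the compared areas (6.80 to 7.50), and 7.40 total ones (6.46 to 8.44), against 7.46 (7.10 to 7.82). The median distance between neighbours was 148 bp in H2A.Z (133 to 155 bp), against 139 bp (135 to 143 bp) in the compared areas, and 143 bp in total (135 to 150 bp), against 136 bp (130 to 140 bp). In the single-end lists it was 166 bp in H2A.Z (160 to 171 bp), against 160 bp (157 to 161 bp), and 163 bp in total (158 to 167 bp), against 162 bp (161 to 163 bp). All these intervals overlap. Distances of 140 to 200 bp, the usual nucleosome repeat, made up 63.8% of H2A.Z single-end distances around the centromere and 63.2% of total ones, against 59.4% and 66.6% in the compared areas. By paired-end data the shares were 47.4% in H2A.Z and 46.2% in total, against 43.2% and 41.5%. The difference in total thus had unlike signs in the list types.

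Distances over 300 bp were rare around the centromere and in the compared areas alike. In the paired-end lists they numbered 2 of 215 in H2A.Z, against 25 of 1612 in the compared areas, and 4 of 221 in total, against 23 of 1683. The longest were 312 bp in H2A.Z and 317 bp in total, and the longest single distances in the compared areas were 3215 and 3319 bp. The 3 longest in H2A.Z ran from 104320 to 104632, from 118337 to 118648 and from 103330 to 103628. The first and second of these were also among the 3 longest in total, which ran from 123792 to 124109, from 104318 to 104632 and from 118346 to 118649. Other lists placed centres more than 50 bp inside some of these stretches. The stretch at 104320 held 1 H2A.Z single-end centre, that at 118337 held 1 total single-end centre, and that at 123792 held 1 H2A.Z paired-end and 1 total single-end centre. No other list had one inside the stretch at 103330.

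The fuzziness of positions around the centromere was within counting error of that in the compared areas. The median forward SD was 26.5 bp in H2A.Z (25.7 to 27.0 bp), against 27.0 bp (26.7 to 27.3 bp) in the compared areas, and 25.5 bp in total (24.5 to 26.3 bp), against 25.2 bp (24.9 to 25.5 bp). It varied along the total list, with medians of 23.8, 25.3 and 26.6 bp in the 3 windows from left to right, of which the first was below all 22 compared windows. The most fuzzy H2A.Z positions by paired-end data were at 112496, 124294, 122809, 126798 and 124646, with forward SDs from 39.7 to 48.4 bp. In the total list they were at 113145, 114430, 100799, 126707 and 123531, with 39.6 to 48.2 bp. The position at the centromere was thus the second most fuzzy of the 222 total positions, though it ranked 2298 of 2353 by score and its width may be poorly estimated.

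The median gap from forward to reverse peak, or peak distance, was shorter around the centromere in both libraries, though not in every window. It was 124 bp in H2A.Z (122.7 to 124.6 bp), against 125.1 bp (124.7 to 125.4 bp) in the compared areas, and 124 bp in total (122.9 to 125.2 bp), against 126.5 bp (126.1 to 126.9 bp). The window with the centromere had the shortest medians, 122.1 bp in H2A.Z and 122.6 bp in total, both below all 22 compared windows, which ran from 123.3 to 129.7 bp and from 122.8 to 130.5 bp. By single-end data the medians around the centromere were 126.3 bp in H2A.Z and 126.4 bp in total, against 128.4 and 128.3 bp, and only the H2A.Z intervals did not overlap. There the centromere window was below 21 of 22 compared windows in H2A.Z and below 19 in total. In the left window total chromatin had medians of 127.0 bp by paired-end and 129.7 bp by single-end data, above those of the compared areas.

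The best-ranked H2A.Z positions around the centromere lay at 124113, 101768, 103330, 118337 and 114204, with ranks of 9, 23, 54, 83 and 84 of 2264. Their total partners, 0.565 to 13.8 bp away, ranked 69, 317, 147, 529 and 135 of 2353. The fifth of them, at 114204, is the left flank of the centromere. Forward SDs of these H2A.Z positions were 17.2 to 21.4 bp. The best-ranked total positions were at 106635, 111919, 113045, 104632 and 106137, with ranks of 3, 11, 33, 35 and 47, and all 5 lie to the left of the centromere. Their H2A.Z partners, 0.195 to 11.6 bp away, ranked 316, 89, 154, 198 and 481 of 2264. The 5 best positions of the libraries had no place in common.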

How the data were processed

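Titles put the 2 samples in groups. Each has 2 lists of nucleosome positions on chromosome III, from paired-end and single-end data per the file names. The series title gives PING as the model that predicted them. The submitters' processing notes list BWA, SAMtools and sacCer2, and versions and settings were not given in the sources used here.

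Centres, peak distances and standard errors are deposited in bp and variances in squared bp, per the file headers. Mixing weights are deposited as a fraction. The deposited score follows the authors' own scale, and in all 4 lists the rank follows it.

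Medians, shares and ranks were computed with scipy 1.17.1, pandas 2.3.3 and numpy 2.4.6 (Python 3.11.15), and checked on simulated data. No test was run, since each group has 1 library. The members, and the rules for positions named, were chosen with earlier results of these data known. Named are the centres around the point, and in paired-end lists the 5 best-ranked and most fuzzy, the 3 longest distances, and the 5 pairs each with the largest gain and loss. The peak distance, the minimum of 25 points and the 5 kb pair counts by side were added after the values were seen. Alternatives covered list type, match distance, score and overlap filters, identifiers, compared area and the point. The gene table belongs to assembly R64 and gave names only, and no sequence was used here.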

Additional observations from a re-analysis of the deposited data

Results flagged for a closer look

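For 2 of the 8 measures compared between the region and the rest of the arms, the libraries differed in sign by paired-end data. Positions per kb differed by 0.0583 in H2A.Z and by -0.0559 in total, region minus compared areas. The median forward SD differed by -0.545 bp in H2A.Z and by 0.307 bp in total. By single-end data positions per kb differed by 0.0350 and 0.302, with the same sign. The forward SD differed there by -1.13 and 0.105 bp, again with unlike signs. Without entries closer than 100 bp to one of higher score the signs were alike for both measures, at 0.160 and 0.163 per kb and at -1.03 and -0.114 bp. With 1 library per group neither difference between the libraries was tested, and in each library the intervals of the region and the compared areas overlap.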

How the results depend on the processing

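No paired analysis was possible because each group has 1 library. Of 125 alternatives to 27 comparisons, 110 moved by less than the half-width of the main interval, or by less than 1.5 times for a count. Reversals numbered 0, but were counted only for the H2A.Z percentile rank, the peak distances and the pairs within 1 kb. Other differences did change sign, in both libraries. Total positions per kb differed by -0.0559 in the main setting and by 0.302 in single-end lists. The total percentile rank differed by 0.637 points, and by -4.25 points from the left area only. Against the left area only, the median neighbour distance in total chromatin differed by -0.391 bp and the H2A.Z percentile rank by 9.05 points. The share of distances of 140 to 200 bp in total turned to -3.40 percentage points in single-end lists and to -2.09 without entries closer than 100 bp to one of higher score, against 4.68. In H2A.Z that share turned to -1.33 without such entries and to -0.538 in the upper 75% of scores, against 4.27. H2A.Z positions per kb differed by 0.0583, and by -0.0372 from the right area only. The total share of distances under 100 bp turned from -4.59 to 0.910 percentage points in single-end lists. The H2A.Z share in the top 20% differed by 11.3 percentage points, against 4.38 for the top 10%. The single-end H2A.Z peak distance differed by -2.13 bp. Within 3 kb the median H2A.Z percentile rank was 81.8, against 72.6 within 5 kb. The matched share was 47.2% at 10 bp, 91.7% at 50 bp and 84.3% in single-end lists, where a wider distance raises it by construction. The pairs ranked 25 points higher in H2A.Z numbered 43 at 50 bp and 16 in the upper 75% of scores. Those ranked lower numbered 5 at 10 bp, 16 at 50 bp and 3 in the upper 75%. The gain within 1 kb stayed between 19.7 and 35.9 points over 5 alternatives chosen after seeing the data. Causes were not tested. Moving the point 100 bp to either side left medians within 1 kb inside their intervals. Without read counts, how depth limits these values is unknown.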
